A study of Mus musculus with 12 samples.

Results

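The miR-297, miR-466, miR-467 and miR-669 names form a group of related mouse miRNAs, most of whose hairpins lie in 1 intron of Sfmbt2. They were taken from a small RNA-seq table of mouse kidney as every miRNA name that begins with 1 of these 4 stems followed by a letter or hyphen, a rule that uses no measured value. This gave 61 of the 1652 miRNA names in the table, and each of the 61 had reads in at least 1 library. They comprised 3 miR-297 names, 22 miR-466 names, 13 miR-467 names and 23 miR-669 names. The study compared kidneys of untreated wild-type (WT) mice at day 8 with kidneys at day 0, with 6 libraries at each age, to find miRNAs that change in the neonatal period and might regulate the mineralocorticoid receptor. Strain and sex were not used here, and the labels do not say whether each library came from a separate animal, so p-values measure the spread between these libraries only.

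A miRNA is cut from a hairpin transcript, and either arm of the hairpin (5p or 3p) can be loaded into an Argonaute protein. The loaded strand pairs with messenger RNAs mainly through its seed, the bases just after its 5′ end, and lowers their stability and translation. Sfmbt2 encodes a Polycomb group protein. In mouse and rat it is imprinted and expressed from the paternal copy in early embryos and in extraembryonic tissue, and the large intronic miRNA cluster is known for its role in the placenta. Many hairpins of the cluster are near copies of one another, and many of their arms hold runs of alternating purines and pyrimidines that resemble simple repeats.

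RefSeq mature sequences (GRCm38.p6) were matched for 8 of the 61 members, and all 8 come from hairpins outside Sfmbt2. They are shown because they include miR-466k and miR-467h, which fell at day 8, and because they show how members of 1 stem differ in their seed. Each is written 5′ to 3′ with the seed, bases 2 to 8, in capitals.
miR-466k: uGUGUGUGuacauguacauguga
miR-467h: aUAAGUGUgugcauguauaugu
miR-466j: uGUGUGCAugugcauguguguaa
miR-669n: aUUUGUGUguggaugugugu
miR-466i-3p: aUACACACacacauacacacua
miR-466q: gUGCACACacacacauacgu
miR-467f: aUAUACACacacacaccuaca
miR-467g: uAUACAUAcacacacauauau
These 8 members had 8 different seeds, so a shared stem in the name did not mean a shared seed among them. Among the RefSeq mature miRNAs of the mouse, the seed of miR-467h was also that of miR-668-5p, while each of the other 7 seeds belonged to 1 name. miR-466k lies at chr3:85467396-85467418 on the plus strand and miR-467h at chr9:115381898-115381919 on the plus strand. The 4 names rich in CA repeats lie at chr13:17747552-17747573 on the plus strand (miR-466i-3p), chr3:28419988-28420007 on the plus strand (miR-466q), chr11:69635419-69635439 on the minus strand (miR-467f) and chr5:34732872-34732892 on the minus strand (miR-467g).

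The libraries held 5157265 to 11782109 miRNA reads at day 8 and 3372228 to 9046292 at day 0, and levels are in CPM, counts per 1000000 miRNA reads. Of 5 kidney-enriched miRNAs, 4 were higher and 1 lower at day 8, and their summed level was 40479 to 44100 CPM at day 8, against 23203 to 25338 CPM at day 0. In whole-tissue RNA, fewer cells of a type and less RNA per cell cannot be told apart. Several lists of miRNAs known from other cell types moved with age. All 4 tested of 7 striated muscle names were lower at day 8 (3 with the TMM factors described below), with a summed level of 405 to 503 CPM at day 8 and 498.9 to 1993 CPM at day 0, and both liver names were lower, with a sum of 15.2 to 333 CPM at day 8 and 481 to 3296 CPM at day 0. Of 8 names typical of embryonic stem cells and trophoblast, 6 were in the table. Their sum was 0.343 to 1.47 CPM at day 8 and 4.86 to 16.7 CPM at day 0. The 1 name of that list abundant enough to test was lower at day 8, while miR-302a-3p and miR-302b-3p, which mark that state, are not among the names of the table. Of 3 erythroid names 0 were called, of 3 tested neural names 2 were lower (1 lower and 1 higher with TMM factors), and of 4 leukocyte names 2 were higher (4 with TMM factors). The part of these cell types in the values below was not tested. Day 8 replicate 3 stood apart from the other day 8 libraries in a number of members, so results that rest on it are given with and without it.

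The members together were a small share of the kidney miRNA pool, and their summed level was lower at day 8. The sum was 446 ± 115 CPM at day 8 and 698 ± 112 CPM at day 0 (SD, n = 6 each), a ratio of 0.639 of day 8 to day 0. At day 8 the lowest, median and highest libraries held 354, 421 and 671 CPM, against 584, 671 and 832 CPM at day 0. The groups overlapped only through day 8 replicate 3, since the other 5 day 8 libraries reached at most 437 CPM. Without that library the day 8 mean was 401 ± 36.5 CPM (SD, n = 5) and the ratio 0.574. The fall was smaller with TMM factors, with a ratio of 0.835, or 0.757 without day 8 replicate 3. The miR-467 names, at 234 ± 23.4 CPM at day 8 and 351 ± 54.1 CPM at day 0, made up the largest share of the sum over all 12 libraries. The miR-669 names had 130.1 ± 21.4 CPM at day 8 and 261 ± 45.2 CPM at day 0. In CPM as deposited, neither of these 2 stems overlapped between the ages. The highest day 8 library was at 266 CPM against a lowest day 0 library of 297.3 CPM for miR-467, and 157 against 202 CPM for miR-669. Sums by stem were not computed with TMM factors, so whether these stems stay apart on that scale is not shown. The 3 miR-297 names summed to 9.40 ± 3.37 CPM at day 8 and 16.3 ± 3.90 CPM at day 0. The miR-466 names were at 72.6 ± 90.0 CPM at day 8 and 69.6 ± 14.4 CPM at day 0, and without day 8 replicate 3 at 35.9 ± 5.86 CPM at day 8 (n = 5).

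**Figure D1:**
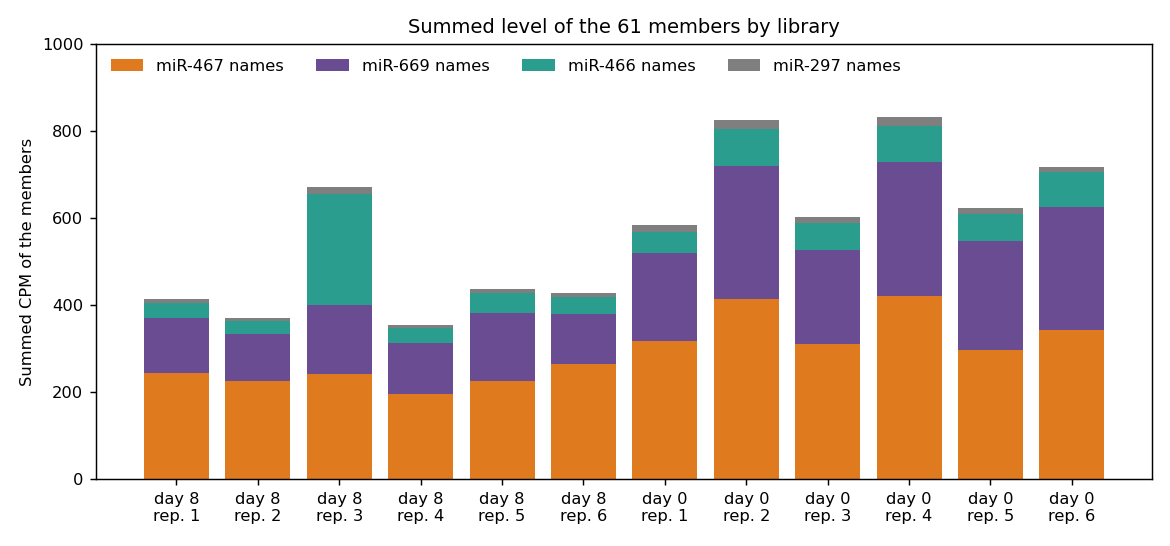
Summed CPM of the 61 members in each library (y axis, CPM), with 1 bar per library, day 8 on the left and day 0 on the right, and colours for the 4 name stems. Day 8 libraries other than replicate 3 lie between 354 and 437 CPM and day 0 libraries between 584 and 832 CPM, while day 8 replicate 3 reaches 671 CPM, of which 256 CPM come from miR-466 names.

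Levels were very unequal among members. miR-467e-5p, miR-669c-5p and miR-467c-5p, each the 5p arm of a hairpin with 1 annotated copy, held 50.6% of the members' summed CPM at day 8 and 58.6% at day 0. Without day 8 replicate 3 the day 8 share was 58.2%, close to that at day 0. A total of 37 members had reads in all 12 libraries, 12 had reads in 6 libraries or fewer, and 4 were seen in 1 library only. The 29 members with at least 1 CPM in at least 6 libraries were tested, and the other 32 were too low to test.

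Of the 29 tested members, 19 fell at day 8, 0 rose and 10 did not pass the threshold (limma on log2(CPM + 1), adjusted p under 0.05 over all 564 names tested). At an unadjusted p under 0.05 the count of higher members was also 0. The background is high, since 48.2% of all tested names were lower at day 8 and 16.5% were higher. The median log2 change of the tested members was -0.60, beside -0.34 for all names tested, and 21 of the 29 lay below the median of all names. Sign alone says little here, because the median of all names moved to -0.00 when CPM were rescaled by TMM factors, a normalization that centres most names (a shift of 0.34). On that scale 12 of the same 19 members remained lower and 0 were higher, beside 34.2% lower and 30.3% higher among all names, and the median of the members was -0.33. Relative to the median of all names the median of the members was thus -0.26 as deposited and -0.33 after TMM rescaling. The counts of lower members were 5 of 8 tested for miR-466, 5 of 8 for miR-467, 8 of 10 for miR-669 and 1 of 3 for miR-297, and with TMM factors 3, 3, 5 and 1. On the reads recovered from CPM, edgeR's quasi-likelihood test with TMM factors called 12 members lower and 0 higher, beside 34.6% and 30.7% of all names. With upper quartile factors it called 6 lower and 3 higher, beside 27.5% and 37.8%, and DESeq2 called 11 lower and 1 higher, beside 33.5% and 31.9%. How the authors assigned reads that match several near-identical members is not given in the sources used here, so values of close relatives may not be independent.

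**Figure D2:**
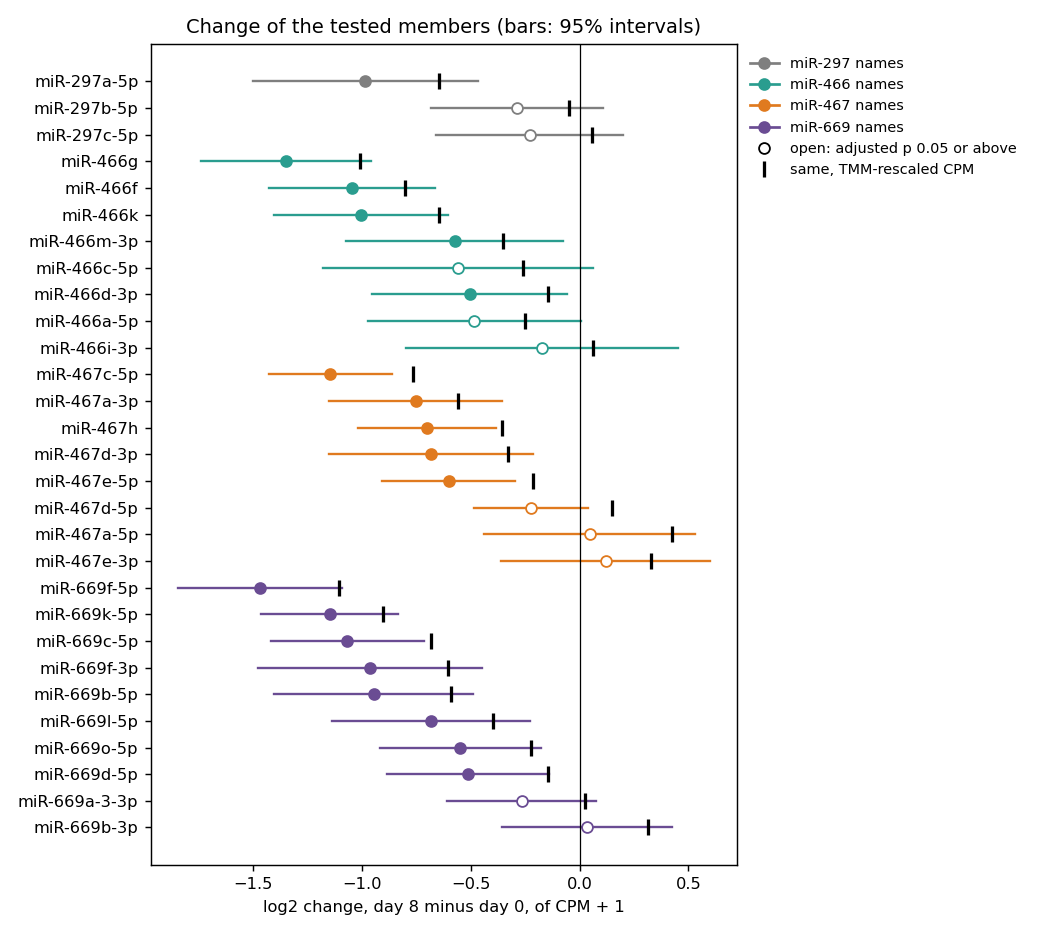
Change of the 29 tested members (x axis, log2 of CPM + 1, day 8 minus day 0), grouped by stem. Filled circles mark the 19 members with an adjusted p under 0.05 in limma, bars are 95% intervals, and black ticks are the same change on TMM-rescaled CPM, which lie to the right of the circles. The lowest value is -1.47 for miR-669f-5p and the highest 0.12 for miR-467e-3p, whose interval includes 0.

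In 9 of the 29 tested members every day 8 library lay below every day 0 library, and the reverse held in 0 members. Among all tested names the shares were 35.1% and 10.8%. Such a separation towards lower values was thus no more common among the members than among all names. Those 9 were miR-669c-5p, miR-467c-5p, miR-669f-5p, miR-669k-5p, miR-466g, miR-466f, miR-466k, miR-467h and miR-467a-3p. Of them, 6 were lower under every alternative scaling, tool, filter and left-out library that was run, namely miR-669f-5p, miR-466g, miR-669k-5p, miR-467c-5p, miR-669c-5p and miR-466f.

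On the log2(CPM + 1) scale the largest change was that of miR-669f-5p, the 5p arm of the hairpin Mir669f in the Sfmbt2 intron. It was at 6.26, 10.3 and 13.2 CPM in the lowest, median and highest day 8 libraries, against 24.3, 27.6 and 40.7 CPM at day 0. The ages were well apart, with a gap between the highest day 8 and the lowest day 0 library. The log2 change was -1.47 (SE 0.18, limma adjusted p = 3.88e-06), and -1.10 with TMM factors. miR-466g was at 3.31, 3.92 and 5.73 CPM at day 8, against 8.33, 12.3 and 16.9 CPM at day 0. All its day 8 libraries were again below all its day 0 libraries. Its log2 change was -1.35 (SE 0.18, limma adjusted p = 1.22e-05), and -1.01 with TMM factors.

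miR-467c-5p, the third most abundant member, was at 28.3, 31.3 and 39.4 CPM in the lowest, median and highest day 8 libraries, against 59.6, 71.6 and 88.6 CPM at day 0. The day 8 libraries were close to one another and separate from day 0. The log2 change was -1.15 (SE 0.13, limma adjusted p = 2.71e-06), and -0.76 with TMM factors. miR-669c-5p was at 53.5, 69.7 and 94.8 CPM at day 8, against 106, 160.0 and 174 CPM at day 0. Its groups came near each other but did not overlap. Its log2 change was -1.07 (SE 0.16, limma adjusted p = 4.37e-05), and -0.68 with TMM factors.

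miR-669k-5p and miR-466f are members of low level that fell by similar amounts. miR-669k-5p was at 0.679, 0.984 and 1.51 CPM in the lowest, median and highest day 8 libraries, against 2.73, 3.25 and 4.45 CPM at day 0. miR-466f was at 0.735, 0.876 and 1.55 CPM at day 8, against 1.90, 3.43 and 4.201 CPM at day 0. Neither overlapped between the ages. On the log2 scale the change was -1.15 for miR-669k-5p (SE 0.15, limma adjusted p = 7.48e-06) and -1.05 for miR-466f (SE 0.18, limma adjusted p = 0.000116). At such levels the pseudocount of 1 CPM understates a change, and with a pseudocount of 0.1 CPM the changes were -1.71 for miR-669k-5p and -1.56 for miR-466f, beside -1.55 for miR-669f-5p. The ratio of mean CPM, day 8 over day 0, was 0.294 for miR-669k-5p, 0.318 for miR-466f, 0.339 for miR-466g and 0.342 for miR-669f-5p, so the order of these members depends on the scale.

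The most abundant member, miR-467e-5p, showed a smaller change that turned on the scaling. It was at 89.0, 123.6 and 154 CPM in the lowest, median and highest day 8 libraries, against 153, 181 and 237 CPM at day 0. The highest day 8 library, replicate 6, reached just above the lowest day 0 library. The log2 change was -0.60 (SE 0.14, limma adjusted p = 0.00184), and -0.22 with an adjusted p of 0.188 with TMM factors. Its 3p arm, miR-467e-3p, was at 1.41 ± 0.610 CPM at day 8 and 1.25 ± 0.681 CPM at day 0 (SD, n = 6 each) and did not pass the threshold.

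Other abundant miR-467 members did not follow the rest. miR-467a-5p, whose name belongs to 10 hairpins of the cluster, was at 20.2, 29.4 and 67.3 CPM in the lowest, median and highest day 8 libraries, against 25.1, 32.9 and 39.8 CPM at day 0. The ages overlapped widely and the highest value of all was day 8 replicate 3. The log2 change was 0.05 (SE 0.23, limma adjusted p = 0.870), and -0.16 without day 8 replicate 3. With TMM factors it was 0.42 (limma adjusted p = 0.106). On recovered reads the member was called higher by DESeq2, at 0.53 (DESeq2 adjusted p = 0.0273). The same call came from edgeR with upper quartile factors, at 0.67 (edgeR adjusted p = 0.0189). miR-467d-5p was at 21.4, 26.0 and 30.8 CPM at day 8, against 23.5, 31.0 and 33.8 CPM at day 0. The groups overlapped, and the log2 change was -0.23 (SE 0.12, limma adjusted p = 0.121), with a TMM value of 0.15.

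Among other members that fell, miR-669f-3p was at 9.24 ± 2.78 CPM at day 8 and 19.2 ± 5.66 CPM at day 0 (SD, n = 6 each), and changed by -0.96 on the log2 scale (SE 0.24, limma adjusted p = 0.00267). miR-669b-5p was at 9.15 ± 2.97 CPM at day 8 and 18.2 ± 4.11 CPM at day 0, a log2 change of -0.95. Both remained lower with TMM factors, as did miR-297a-5p and miR-467a-3p. miR-297a-5p was at 5.25 ± 2.70 CPM at day 8 and 10.97 ± 3.16 CPM at day 0, and its log2 change of -0.99 was -1.18 without day 8 replicate 3. miR-467a-3p was at 0.655 ± 0.347 CPM at day 8 and 1.77 ± 0.521 CPM at day 0, with a log2 change of -0.75, and had no read in day 8 replicate 3.

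The other 7 members that fell were no longer called with TMM factors. Besides miR-467e-5p these were miR-467d-3p (log2 change -0.68), miR-669l-5p (-0.68), miR-466m-3p (-0.58), miR-669o-5p (-0.55), miR-669d-5p (-0.51) and miR-466d-3p (-0.51). miR-669d-5p, the most abundant of these 6, was at 14.3 ± 3.74 CPM at day 8 and 20.7 ± 4.56 CPM at day 0 (SD, n = 6 each), and miR-466d-3p was at 11.3 ± 2.88 CPM at day 8 and 16.8 ± 4.84 CPM at day 0. The calls of miR-466d-3p and miR-466m-3p were each lost in 10 of the 12 fits that left out 1 library, so they rest on small margins. miR-466c-5p, with -0.56 on the log2 scale (limma adjusted p = 0.103), missed the threshold and passed it without day 8 replicate 3, at -0.82 (limma adjusted p = 0.00197).

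**Figure D3:**
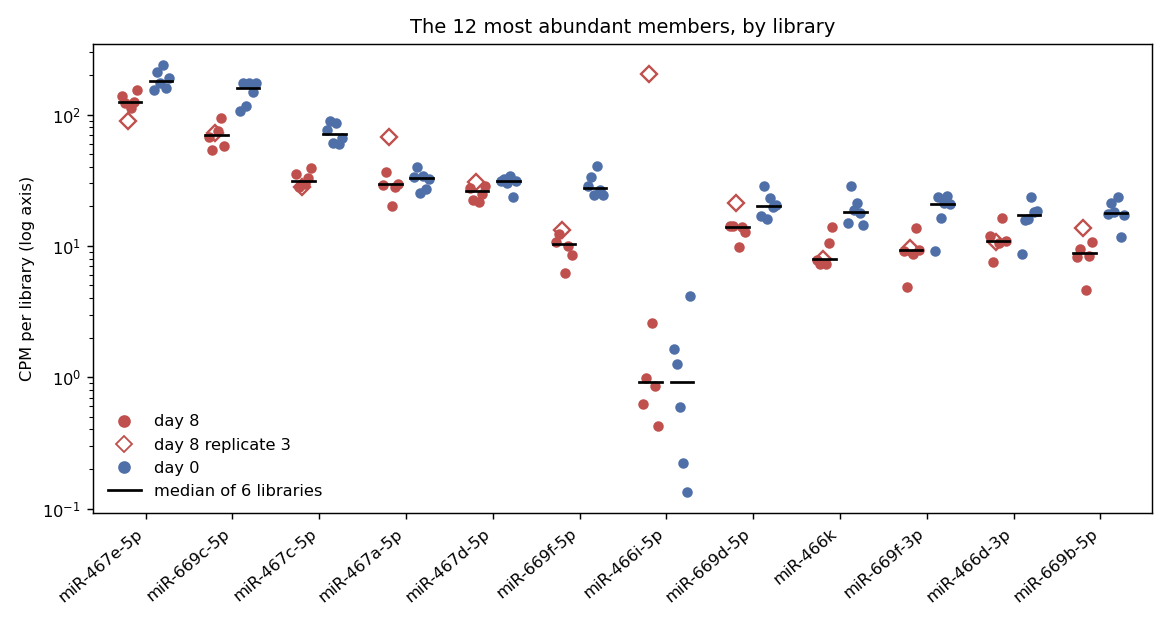
CPM of the 12 most abundant members in each library (y axis, log scale), day 8 left of day 0 for each member, with black lines at the median of 6 libraries and an open diamond for day 8 replicate 3. miR-669c-5p, miR-467c-5p, miR-669f-5p and miR-466k do not overlap between the ages, while miR-466i-5p is at 205 CPM in day 8 replicate 3 and at most 4.15 CPM elsewhere.

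The members that fell were found at hairpins inside and outside Sfmbt2. In the GENCODE annotation of GRCm38, Sfmbt2 spans chr2:10370510-10595253 (plus strand), and 72 of 82 hairpins of these 4 stems lie within it, between 10466663 and 10518279, over 51.6 kb. The whole cluster lies in 1 intron, counted as intron 10 or 11 depending on the annotated transcript, that spans 10461473 to 10523944. The authors' own genome build is not given in the sources used here, so members were placed by name. A total of 47 names had hairpins in the intron only, 9 only elsewhere, 4 in both, and miR-466a-5p had none matched. Of the 23 tested members with hairpins in the intron only, 15 were lower, with a median log2 change of -0.58, beside 48.2% and -0.34 for all names tested. With TMM factors 8 of the 23 were lower, a share close to the 34.2% of all names, with a median of -0.26. Of the 3 tested members with hairpins only elsewhere, miR-466k and miR-467h were lower and miR-466i-3p did not pass the threshold. Both tested members with hairpins in both places, miR-297a-5p and miR-466f, were lower. These calls were the same with TMM factors.

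miR-466k, from a single hairpin on chromosome 3, was at 7.23, 7.91 and 13.8 CPM in the lowest, median and highest day 8 libraries, against 14.5, 18.2 and 28.6 CPM at day 0. The groups did not overlap, by a narrow margin. Its change was -1.01 on the log2 scale (SE 0.19, limma adjusted p = 0.000253), and -0.65 with TMM factors. miR-467h, from a single hairpin on chromosome 9, was at 4.89, 6.22 and 7.02 CPM at day 8, against 8.67, 9.37 and 15.1 CPM at day 0. Again no library of one age reached the other. The log2 change was -0.70 (SE 0.15, limma adjusted p = 0.000704), and -0.36 with TMM factors. The sequences printed above show that these members of different stems have different seeds, GUGUGUG for miR-466k and UAAGUGU for miR-467h.

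Within the intron, 41 names had a single annotated hairpin in the cluster and could be given a place. None of them lies between 14.6 and 39.1 kb from the first hairpin, where the hairpins belong to names with several copies. This choice of names left only the ends of the cluster, and the most abundant of them came from both. miR-669f-5p, miR-669b-5p and miR-467c-5p lie near its 5′ end, and miR-467e-5p, miR-467d-5p, miR-669c-5p, miR-466d-3p and miR-466g near its 3′ end, and members that fell were found at both ends. Neighbouring hairpins differed widely in level, and the arms of 1 hairpin did as well.

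**Figure D4:**
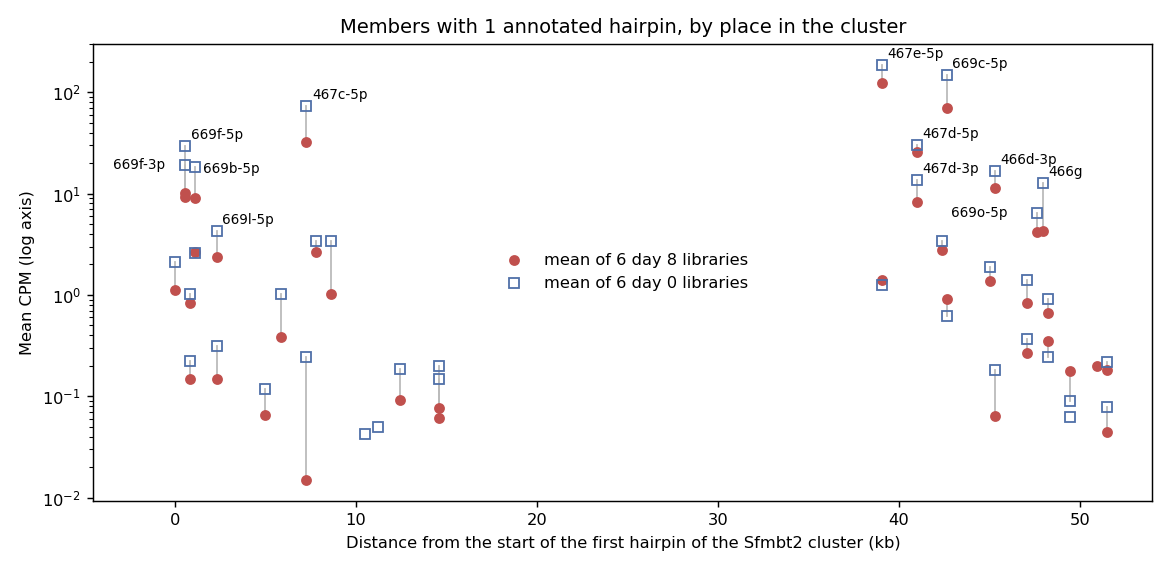
Mean CPM (y axis, log scale) of the 41 names with 1 annotated hairpin in the Sfmbt2 cluster, by distance from the first hairpin (x axis, kb), with filled circles for the mean of 6 day 8 libraries, open squares for the mean of 6 day 0 libraries and a line joining the 2 means of a name. A mean of 0, found for 3 names at day 8 and 1 name at day 0, is not drawn, and the gap in the middle holds hairpins of names with several copies, which are left out. miR-467e-5p, miR-669c-5p and miR-467c-5p stand highest at both ages.

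Both arms of a hairpin could be compared in few members. With both arms at a mean of at least 5 CPM, miR-467d and miR-669f were the only 2 member hairpins tested. The log2 ratio of the 5p to the 3p arm of miR-467d was 1.58 ± 0.375 at day 8 and 1.12 ± 0.397 at day 0 (SD, n = 6 each), a change of 0.46 (SE 0.20, limma adjusted p = 0.0477), beside 64.3% of all 112 hairpins tested that changed in either direction. The call was lost in 8 of the 12 fits that left out 1 library. For miR-669f the ratio was 0.14 ± 0.604 at day 8 and 0.64 ± 0.519 at day 0, a change of -0.51 (SE 0.26, limma adjusted p = 0.101). With a lower minimum of 1 CPM, 6 member hairpins could be tested and 3 changed, beside 57.7% of 168 hairpins. The log2 ratio of miR-467a changed by 0.80, that of miR-467e by -0.72 and that of miR-669b by -0.98. Leaving out day 8 replicate 3, which had 67.3 CPM of miR-467a-5p and no read of miR-467a-3p, the change was 0.46 for miR-467a and -1.22 for miR-669b, both past the threshold. That of miR-467e was then -0.52 and no longer called (limma adjusted p = 0.0519), while that of miR-467d was 0.60 and called, beside 59.2% of 169 hairpins.

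Day 8 replicate 3 held the members' most extreme values. In it miR-466i-5p, from a hairpin on chromosome 13, was at 205 CPM, from 1059 reads (exact binomial 95% interval 193 to 218 CPM, for counting error only). In the other 11 libraries it was at 0.133 to 4.15 CPM, from 1 to 30 reads. Its median was 0.922 CPM at day 8 and 0.925 CPM at day 0, and it was not tested because fewer than 6 libraries reached 1 CPM. The other arm, miR-466i-3p, was at 5.04 CPM in day 8 replicate 3, against 0.612 to 2.27 CPM in the other day 8 libraries and 0.884 to 2.80 CPM at day 0.

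This library was also high in many other members. Levels in it were set against the median of the other 5 day 8 libraries, with 0.5 CPM added to both. At least 3 times as high were 7 of the 61 members, beside 25 of all 1652 names, or 1.51%. At least 2 times as high were 16 members, some of them on only 3 to 5 reads. The share of all names at that lower cut was not counted, so the 16 have no background. The 7 were miR-466i-5p, miR-466f-3p, miR-669c-3p, miR-466h-5p, miR-466i-3p, miR-669p-3p and miR-466c-5p. In the other 11 libraries no more than 1 member was at least 3 times as high as the median of its age. Over all names, though, 39 (2.36%) were that high in day 0 replicate 6 and 22 (1.33%) in day 0 replicate 2. Day 8 replicate 3 also had the fewest reads of the day 8 libraries, 5157265. Among the 29 tested members, day 8 replicate 3 held the highest day 8 value for 16, beside 36.7% of all tested names. The abundant members differed in this respect, since miR-467e-5p had its lowest day 8 value there while miR-467a-5p and miR-467d-5p had their highest.

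Of the 16 members at least 2 times as high in day 8 replicate 3, 4 had a RefSeq sequence, and these 4 carry CA repeats. The motif CACACACA, searched on the mature strand, was found in 4 of 1679 mouse mature sequences (0.238%), and all 4 were members. Only 8 of the 61 members had a sequence to search, all from hairpins outside Sfmbt2. Whether the remaining members carry this motif, or the UGUGUGUG motif below, could not be seen. Capitals mark the longest run of alternating C and A, or of alternating G and U, in each sequence.
miR-466i-3p: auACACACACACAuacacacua
miR-466q: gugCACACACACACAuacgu
miR-467f: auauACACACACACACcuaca
miR-467g: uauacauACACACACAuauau
miR-1187: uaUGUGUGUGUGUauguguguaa
miR-3082-5p: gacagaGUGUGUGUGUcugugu
The 4 CA-repeat members were 2.16 to 3.33 times as high in day 8 replicate 3 as in the median of the other day 8 libraries, on 3 to 26 reads each. They were taken from members at least 2 times as high there, so this choice fixed their ratios at 2 or more. For miR-467f and miR-467g, on 3 and 4 reads, that median was 0 CPM, so their ratios depend on the 0.5 CPM added. The motif UGUGUGUG was found in 7 mature sequences (0.417%), of which 2 were members. Of those, miR-466k was 1.01 times as high in that library and miR-669n had no read there. The other 5, which are not members, ranged widely in day 8 replicate 3. miR-1187 was 23.4 times as high there, miR-3082-5p 6.64 times, miR-574-5p 3.12 times, miR-32-3p 1.40 times and miR-672-5p 1.04 times, and the median over all 7 names with this motif was 1.40. The names miR-1187 and miR-3082-5p were also high in day 0 replicate 6, at 35.9 and 7.41 CPM. That library had fewer reads than any other. There miR-466i-5p was at 4.15 CPM, its highest value outside day 8 replicate 3. With 0.5 CPM added to both, this was 4.26 times the median of the other day 0 libraries. A match of these letters is a description of the sequences, and its part in the high values was not tested.

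**Figure D5:**
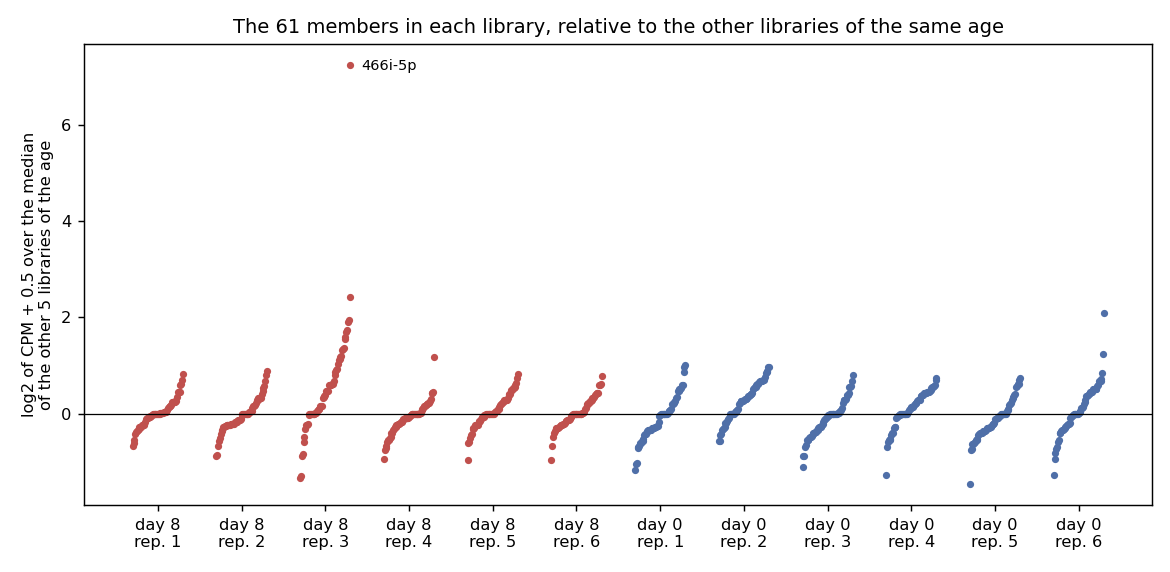
Each of the 61 members in each library relative to the other 5 libraries of the same age (y axis, log2 of CPM + 0.5 over their median), sorted within each library, with day 8 libraries on the left and day 0 libraries on the right. Most points lie near 0, while day 8 replicate 3 has a long upper tail that ends in miR-466i-5p.

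The 32 members too low to test had few reads. Leaving out miR-466i-5p, the other 31 summed to 8.63 ± 6.34 CPM at day 8 and 10.2 ± 1.49 CPM at day 0 (SD, n = 6 each), and to 6.05 ± 0.624 CPM at day 8 without replicate 3. Of the 32, 22 had a lower mean at day 8 and 10 a higher mean, of which 7 were higher also without day 8 replicate 3. miR-466o-3p, at 0.382 ± 0.199 CPM at day 8 and 1.02 ± 0.364 CPM at day 0, was the only one of them that was lower when no filter was applied. The 5 members miR-466l-5p, miR-466f-5p, miR-669j, miR-669g and miR-669n had no reads at day 8, and miR-669i and miR-467f had none at day 0. With 3 reads as the limit that a count of 0 allows, these levels were under 0.255 to 0.582 CPM at day 8 and under 0.332 to 0.890 CPM at day 0, depending on the depth of the library.

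Other rodent-expanded or early-embryonic miRNA clusters were set beside the members. Of 14 names of the miR-290 to miR-295 cluster, which is typical of embryonic stem cells, 1 was tested. This was miR-295-3p, at 0.845 ± 0.387 CPM at day 8 and 8.08 ± 3.46 CPM at day 0 (SD, n = 6 each), a log2 change of -2.23 (limma adjusted p = 1.85e-06). The whole cluster summed to 1.25 ± 0.612 CPM at day 8 and 13.1 ± 5.62 CPM at day 0. Of 32 names of the X-linked Fx cluster, known from testis, 6 were tested, with 1 higher, 0 lower and a median log2 change of 0.50. Of 13 miR-344 names, 1 was tested and lower, miR-344-3p, at 15.9 ± 2.08 CPM at day 8 and 22.4 ± 3.57 CPM at day 0.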

How the data were processed

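Small RNA was sequenced from 12 kidney libraries. Per the labels' protocols, a NucleoSpin miRNA kit gave total RNA and a QIAseq miRNA kit the libraries. The submitters' processing notes name FastQC. An aligner, a genome build and any use of molecular identifiers are not given in these sources. The authors deposited CPM per miRNA name, which sum to 1000000 in each library. Whole reads could be recovered for 100% of values, within 0.001 reads.

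The 564 of 1652 names that reached 1 CPM in 6 or more libraries were tested on log2(CPM + 1) with limma 3.58.1 (R 4.3.3, mean-variance trend, no covariates, all 12 libraries), with Benjamini-Hochberg adjustment over all 564 names and a threshold of 0.05. Changes are day 8 minus day 0 on that scale. Alternatives were edgeR 4.0.16 and DESeq2 1.42.0 on recovered reads, TMM-rescaled CPM, pseudocounts of 0.1 and 5, other filters and each library left out. On recovered reads, edgeR with TMM factors called 195 of the 564 names lower and 173 higher. Arm ratios were fitted over hairpins with both arms at a mean of at least 5 CPM. The limma, edgeR and DESeq2 calls and the arm ratio fit were tested on simulated data. The text names the 12 most abundant members, every member past the threshold and the other arm of these, and other members after their values were seen. The members and lists were chosen with earlier results of these data known. Replicates are numbered in deposition order.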

Additional observations from a re-analysis of the deposited data

Results flagged for a closer look

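Within each age, the highest or lowest library was tested for standing apart from the other 5 with Dixon's ratio at its 95% critical value. Of 78 groups, 15 passed, and 13 of the 15 were day 8 replicate 3. The nominal rate of 5% assumes independent groups of normal values. These groups include values of few reads and sums that contain flagged members, so the count cannot be judged against that rate.

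Day 8 replicate 3 held the highest day 8 value for 36.7% of all tested names. Dixon's ratio was not run over all names, so the counts of flagged members have no background. That library was flagged as the highest of day 8 in 9 members. It held 205 CPM of miR-466i-5p (at most 2.57 CPM in the other day 8 libraries), 67.3 CPM of miR-467a-5p (at most 36.7), 16.1 CPM of miR-467d-3p (at most 7.13) and 10.5 CPM of miR-297a-5p (at most 5.83). It also held 8.92 CPM of miR-466c-5p, 7.37 CPM of miR-669o-5p, 5.04 CPM of miR-466i-3p, 3.30 CPM of miR-669c-3p and 2.71 CPM of miR-466m-3p. Its summed CPM stood apart for all members at 671, for the miR-466 names at 256 and for the miR-297 names at 15.9. For miR-467a-3p it was the lowest day 8 library, at 0 CPM.

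The other 2 flags were single values. miR-467d-5p was at 23.5 CPM in day 0 replicate 5, against 29.99 to 33.8 CPM in the other day 0 libraries. miR-467c-3p was at 0.0894 CPM, which is 1 read, in day 8 replicate 1 and at 0 in the other day 8 libraries.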

How the results depend on the processing

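The count of 19 lower members was 12 by edgeR with TMM factors, 6 by edgeR with upper quartile factors, 11 by DESeq2 and 12 by limma on TMM-rescaled CPM. It was 18 or 19 with other pseudocounts or filters. Among all names, 48.4% were lower with a pseudocount of 0.1, and 47.5% with a pseudocount of 5 or a filter on mean CPM of at least 1. With no filter, 18 of 61 members were lower, beside 18.3% of all names. No member was higher except 3 by edgeR with upper quartile factors (miR-467a-5p, miR-467d-5p, miR-669b-3p) and 1 by DESeq2 (miR-467a-5p). Leaving out 1 library gave 16 to 19 lower members and 0 higher, and a summed CPM ratio of 0.574 to 0.665. The ratio was 0.835 on TMM-rescaled CPM. Without both day 8 replicate 3 and day 0 replicate 6, a choice made after seeing the data, 18 of 27 members were lower. No share of all names is given for the fits with libraries left out, so their counts have no background.

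Changed arm ratios numbered 3 with a minimum of 1 CPM, also 3 with that minimum and day 8 replicate 3 left out (chosen after seeing the data), 0 with a pseudocount of 5 and 0 to 1 with 1 library left out, and no member hairpin had both arms at 20 CPM. The companion lists had 2 or 3 names called throughout.

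Signs turned for members with small changes. In the order edgeR TMM, edgeR upper quartile, DESeq2 and limma on TMM-rescaled CPM, log2 changes were 0.16, 0.33, 0.19 and 0.15 for miR-467d-5p, 0.038, 0.22, 0.045 and 0.059 for miR-297c-5p, 0.040, 0.22, 0.086 and 0.023 for miR-669a-3-3p, and 0.21, 0.37, 0.25 and 0.060 for miR-466i-3p. With upper quartile factors they were 0.010 for miR-669d-5p, 0.0062 for miR-466d-3p and 0.16 for miR-297b-5p, which was 0.027 by DESeq2. With 1 library left out, miR-467a-5p ranged from -0.16 to 0.18, miR-669b-3p from -0.040 to 0.16 and miR-467e-3p from -0.027 to 0.23, and without both named libraries miR-467a-5p was at -0.15 and miR-467e-3p at -0.14. The cause of these turns was not tested.

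No paired analysis was possible because the labels give no replicate numbers that link the ages. The numbers in the library titles separate by age, so any order they mark cannot be told apart from age. Depth limits members below 1 CPM, and TMM and CPM scaling cannot be ranked from these data.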
